A study of Mus musculus with 6 samples.

Results

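The Hox genes encode homeodomain transcription factors that lie side by side in 4 chromosomal clusters of the mouse genome, HoxA on chromosome 6, HoxB on chromosome 11, HoxC on chromosome 15 and HoxD on chromosome 2. Members with the same number in different clusters are paralogues, numbered 1 to 13. Of 39 Hox genes in the RefSeq annotation, 36 had a probe set assigned to that gene alone and were measured, among 22180 genes tested in all. They were 9 genes of HoxA, 10 of HoxB, 9 of HoxC and 8 of HoxD. The other 3 were not analysed here. Where a gene had more than 1 such probe set, the brightest was used.

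In the embryo Hox genes are switched on in the order in which they stand in the cluster, low-numbered genes first and towards the head, high-numbered genes last and towards the tail. Polycomb complexes keep unused stretches of a cluster silent, trithorax complexes keep used stretches active, and retinoic acid induces low-numbered genes. Hox proteins bind DNA with PBX, MEIS and PKNOX partners. The prostate arises from the hindmost part of the gut and urogenital tract, where genes of paralogue group 13 act. HOXB13 is a lineage factor of prostate epithelium that binds together with the androgen receptor.

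RNA came from prostate epithelial cancer cells of Rb1F/F:Trp53F/F:PB-Cre4 mice, and was measured on 6 whole-transcript arrays, 3 for cells infected with PIM1 lentivirus (PIM1) and 3 for cells infected with an empty vector lentivirus (EV). PIM1 is a serine/threonine kinase, and PB-Cre4 expresses Cre from a probasin promoter, which is active in prostate epithelium, so that both groups derive from cells in which floxed Rb1 and Trp53 alleles were the target. The cells grew in medium with charcoal-stripped serum, insulin, transferrin and selenium, pituitary extract, epidermal growth factor and cholera toxin. The labels give no age, no number of animals and no word on separate cultures or infections within a group. The p-values therefore reflect the variation among these arrays alone, and part or all of it may be technical.

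Values are log2 signals, differences are PIM1 minus EV, and a gene is said to rise or fall only where limma's moderated test gave a Benjamini-Hochberg adjusted p under 0.05 over all 22180 genes. A signal was called above background where the mean of either group exceeded a mark set by 1088 olfactory receptor genes, the 95th percentile of their signals, which averaged 3.21 on PIM1 arrays and 3.46 on EV arrays. At limma's unadjusted p under 0.05, 4466 of all 22180 genes were higher and 3994 lower. Of 13879 genes above the mark, 4331 were higher and 2689 lower at that threshold. Of 8301 genes at or below the mark, 135 were higher and 1305 lower. Later counts at an unadjusted p stand beside these. Pim1 itself read 7.11, 6.89 and 6.97 on PIM1 arrays, against 5.26, 6.25 and 5.23 on EV arrays (difference 1.41, limma adjusted p = 0.00455). Fibroblast markers moved with the groups: 10 of 12 rose and 1 fell. This and the following marker counts by adjusted p stand beside 16.1% of all genes rising and 10.9% falling. Summed linear signals of the fibroblast markers were 11472 to 12032 on PIM1 arrays and 2901 to 2914 on EV arrays. Lum and Fap lay below the background mark in both groups. Of 11 luminal epithelial markers 1 rose and 3 fell, with summed signals of 249 to 264 on PIM1 arrays and 792 to 829 on EV arrays. Epcam, Pbsn and Tmprss2 lay below the mark. Most of the gap between the luminal sums was Krt18, without which they were 221 to 232 on PIM1 arrays and 236 to 271 on EV arrays. The luminal marker that rose was Hoxb13 itself. Of 10 basal markers 0 rose and 3 fell by limma, with 0 higher and 5 lower at an unadjusted p under 0.05. Krt14, Krt15, Krt17 and Trp63 lay below the mark. Summed signals of the basal markers were 526 to 555 on PIM1 arrays and 945 to 960 on EV arrays. Most of this gap was Itga6, without which the sums were 418 to 433 on PIM1 arrays and 438 to 485 on EV arrays. The part of these marker shifts in the Hox results was not tested, and in such bulk samples a change in the share of a cell type and a change in RNA per cell cannot be told apart.

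Across the 36 Hox genes, 5 rose (Hoxa4, Hoxa13, Hoxb13, Hoxd8 and Hoxd9) and 5 fell (Hoxb3, Hoxb4, Hoxb6, Hoxb8 and Hoxb9). The share called, 10 of 36, stands beside 27.0% of all genes tested, and by direction beside 16.1% higher and 10.9% lower over all genes. For 21 Hox genes the PIM1 and EV arrays were fully separate, 7 of them higher and 14 lower, where 43.2% of all genes had separate groups (22.3% higher and 20.9% lower). The median difference of the 36 genes was -0.15, against -0.05 for all genes. The share called was near that of the array as a whole. HoxB held all 5 genes that fell and 1 that rose, and HoxA and HoxD held 2 rises each. HoxC held 0 calls by limma. Another scaling moved this balance, to 4 higher and 8 lower after quantile normalization and 5 higher and 8 lower after cyclic loess.

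**Figure D1:**
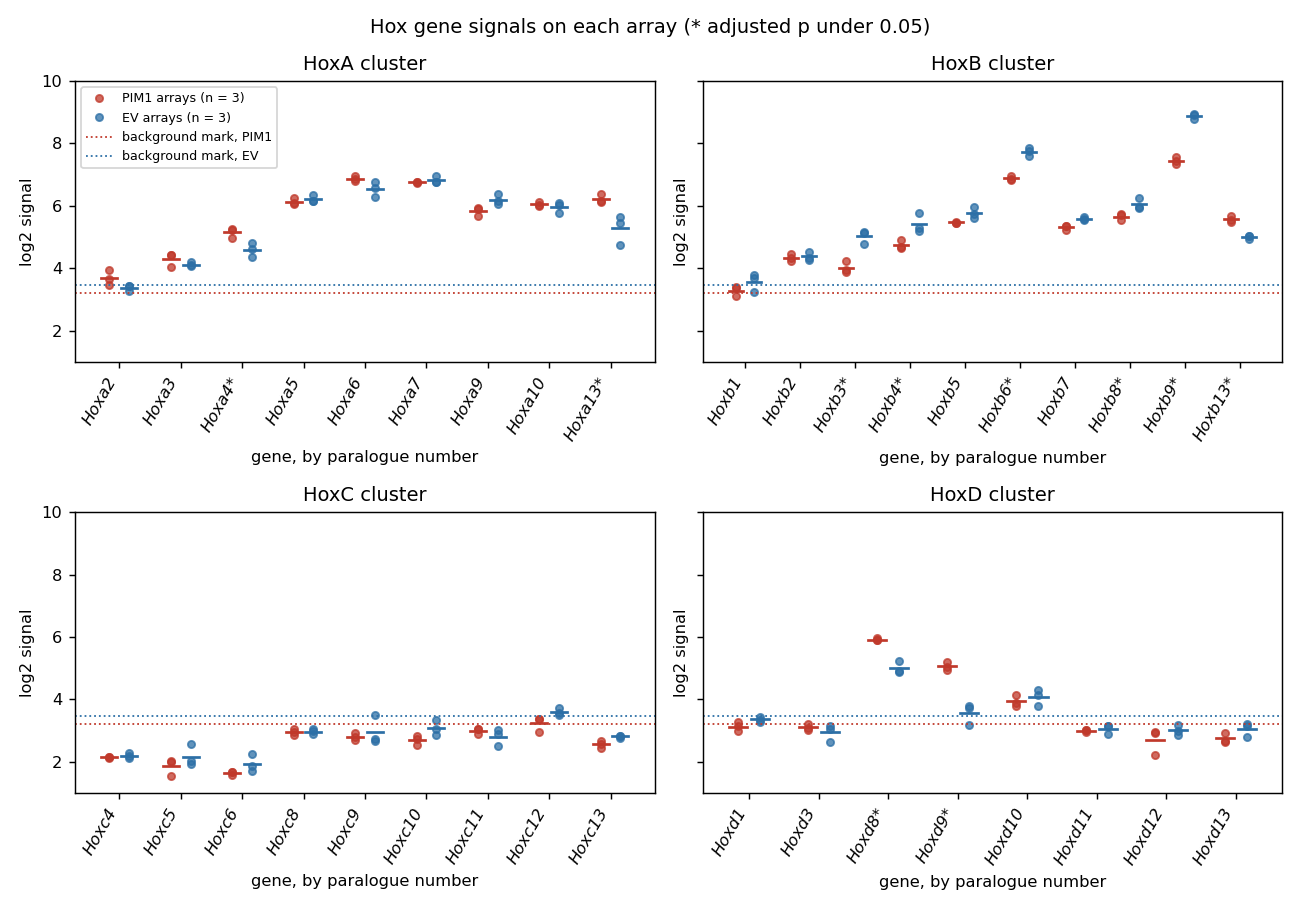
Log2 signal of each of the 36 Hox genes on the 3 PIM1 arrays (left, red) and the 3 EV arrays (right, blue), with group means as bars, in 4 panels by cluster, and dotted lines for the background mark of each group (3.21 for PIM1, 3.46 for EV). The HoxB genes Hoxb3, Hoxb6 and Hoxb9 read lower on all PIM1 arrays and Hoxd8 and Hoxd9 read higher, while most HoxC genes lie below the mark.

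Promoter sequences show what DNA precedes some of the genes that moved. RefSeq promoter entries of assembly GRCm38.p6 were matched for 5 of the 10 called genes, and the 250 bases before an annotated start are printed 5′ to 3′ on the strand of the gene. Capitals mark matches, on either strand, to 3 motifs: TGATNNAT (a PBX-HOX composite site), AGGTCA (the hexamer bound by retinoic acid receptors) and CCAAT (the CCAAT box). Of 32851 promoter entries cut to the same length, 7.68% held the first motif, 14% the second and 33.8% the third. The Hoxb8 entry starts at an annotated start inside the gene. The genes that rose come first.
Hoxd9, chr2:74697513-74697762, plus strand: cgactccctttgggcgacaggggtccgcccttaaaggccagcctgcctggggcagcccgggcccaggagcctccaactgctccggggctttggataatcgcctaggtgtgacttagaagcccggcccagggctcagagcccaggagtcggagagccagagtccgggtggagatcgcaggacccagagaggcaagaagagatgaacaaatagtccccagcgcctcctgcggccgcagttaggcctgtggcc
Hoxd8, chr2:74704365-74704614, plus strand: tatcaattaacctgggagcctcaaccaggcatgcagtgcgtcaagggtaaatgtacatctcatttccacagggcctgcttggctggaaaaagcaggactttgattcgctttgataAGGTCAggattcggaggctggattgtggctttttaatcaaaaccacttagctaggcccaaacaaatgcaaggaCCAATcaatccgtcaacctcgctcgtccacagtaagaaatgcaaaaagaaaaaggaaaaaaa
Hoxa13, chr6:52260881-52261130, minus strand: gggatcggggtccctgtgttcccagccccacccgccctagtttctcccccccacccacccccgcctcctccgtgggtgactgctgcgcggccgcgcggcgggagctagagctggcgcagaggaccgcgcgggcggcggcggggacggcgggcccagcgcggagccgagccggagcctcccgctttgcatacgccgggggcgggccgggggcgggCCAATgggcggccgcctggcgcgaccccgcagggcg
Hoxb8, chr11:96281655-96281904, plus strand: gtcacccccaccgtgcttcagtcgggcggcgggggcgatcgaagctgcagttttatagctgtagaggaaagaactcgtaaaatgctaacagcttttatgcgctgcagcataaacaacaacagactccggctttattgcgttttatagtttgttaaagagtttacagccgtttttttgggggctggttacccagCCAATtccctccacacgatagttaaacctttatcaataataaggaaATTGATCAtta
Hoxb4, chr11:96318017-96318266, plus strand: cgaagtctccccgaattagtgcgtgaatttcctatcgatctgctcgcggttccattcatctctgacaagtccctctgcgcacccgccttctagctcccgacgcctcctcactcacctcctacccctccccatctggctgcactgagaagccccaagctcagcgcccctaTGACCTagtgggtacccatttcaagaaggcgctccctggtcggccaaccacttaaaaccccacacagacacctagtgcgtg

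No motif stood in all 5 sequences. CCAAT stood in Hoxd8, Hoxa13 and Hoxb8, and Hoxd9 held none of the 3. The AGGTCA hexamer stood in 1 promoter of a gene that rose, Hoxd8, and on the opposite strand in 1 of a gene that fell, Hoxb4. The PBX-HOX composite stood in Hoxb8 alone among the 5. Base composition varied, with 80.0% G and C and 35 CpG dinucleotides before Hoxa13 and 44.4% G and C before both Hoxd8 and Hoxb8, with 6 and 12 CpG dinucleotides. The median over the 22 promoter entries of measured Hox genes was 59.2% G and C, against 52.4% over all entries. These letter matches describe the window and are not binding sites.

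HoxB was the cluster with the most calls. All 10 measured HoxB genes lay above the background mark, and the 9 genes from Hoxb1 to Hoxb9 all had negative differences, 5 of them past the threshold. Over all genes above the mark, 13.8% fell and 25.3% rose. The median difference of the 10 HoxB genes was -0.34. Under the 14 alternative settings the difference of Hoxb2 turned positive without PIM1 replicate 2 (0.019) or without EV replicate 3 (0.04), and the other 8 of these 9 genes stayed negative.

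Hoxb9, a paralogue group 9 gene active in trunk and hindgut patterning, fell the most. It read 7.33, 7.44 and 7.58 on PIM1 arrays, against 8.79, 8.94 and 8.91 on EV arrays. The groups were far apart, and within each group the arrays lay close together. The difference was -1.43 (standard error 0.107, limma adjusted p = 4.01e-05), a 2.70-fold lower signal in PIM1. Hoxb6, a mid-cluster gene, read 6.84, 6.94 and 6.86 on PIM1 arrays and 7.84, 7.61 and 7.75 on EV arrays. Its difference was -0.85 (95% interval -1.09 to -0.61, limma adjusted p = 5.66e-04). Every PIM1 array of Hoxb6 lay below every EV array.

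At the low-numbered side of the cluster, Hoxb3 and its neighbour Hoxb4, both known from blood progenitor cells, fell. Hoxb3 read 3.95, 3.87 and 4.23 on PIM1 arrays, against 5.12, 4.79 and 5.16 on EV arrays. The difference of Hoxb3 was -1.01 (standard error 0.144, limma adjusted p = 0.00136), a 2.01-fold lower signal. Hoxb4 read 4.63, 4.67 and 4.92 on PIM1 arrays, against 5.76, 5.29 and 5.18 on EV arrays. EV replicate 1 was the highest Hoxb4 value, and the groups did not overlap. The Hoxb4 difference was -0.67 (limma adjusted p = 0.0187), and it missed the threshold without PIM1 replicate 1 (adjusted p = 0.0697) or PIM1 replicate 2 (0.0689). The annotated spans of Hoxb3 and Hoxb4 overlap, and whether their signals share transcripts was not tested.

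Hoxb8, whose product holds myeloid progenitors in an immature state, was the fall nearest to the threshold. Hoxb8 read 5.73, 5.53 and 5.70 on PIM1 arrays, against 5.97, 6.24 and 5.92 on EV arrays, a difference of -0.39 (limma adjusted p = 0.0462). It did not pass in 8 of 14 alternative settings, among them median centring (adjusted p = 0.0527), the replicate block (0.0895) and leaving out PIM1 replicate 1 (0.0880), PIM1 replicate 2 (0.156), PIM1 replicate 3 (0.0874), EV replicate 1 (0.0643) or EV replicate 2 (0.116). The Hoxb8 call thus rests on the setting.

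The other HoxB genes were not called. Hoxb7, a mid-cluster gene, read 5.36, 5.21 and 5.35 on PIM1 arrays and 5.57, 5.65 and 5.55 on EV arrays (difference -0.28, 95% interval -0.50 to -0.06, limma adjusted p = 0.0662). Hoxb5, known from lung and enteric nerve development, read 5.49, 5.46 and 5.45 on PIM1 arrays and 5.72, 5.61 and 5.96 on EV arrays (difference -0.30, limma adjusted p = 0.0907). For both genes no PIM1 array reached an EV array. Hoxb7 passed in 3 of 14 alternatives, with -0.51 after quantile normalization (limma adjusted p = 0.00538), and Hoxb5 in 4 of 14, with -0.54 after quantile normalization (limma adjusted p = 0.0106). Hoxb5 was the only Hox gene with a second probe set of its own. That dimmer probe set read 4.92, 4.81 and 5.19 on PIM1 arrays, against 5.64, 5.71 and 5.86 on EV arrays, a difference of -0.76 that passed over all probe sets (limma adjusted p = 0.0113). The pair of Hoxb5 probe sets therefore gave the same sign and unlike sizes. Hoxb1 and Hoxb2 pattern the hindbrain. Hoxb1 read 3.37, 3.38 and 3.10 on PIM1 arrays and 3.79, 3.67 and 3.22 on EV arrays (difference -0.28, 95% interval -0.66 to 0.10). Hoxb2 read 4.33, 4.22 and 4.46 on PIM1 arrays and 4.27, 4.34 and 4.53 on EV arrays (difference -0.04, 95% interval -0.30 to 0.23). In both genes the groups overlapped. Hoxb1 passed without EV replicate 3 (-0.45, limma adjusted p = 0.0459).

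Hoxb13, which stands apart at the end of the cluster beyond Hoxb9, went the other way and rose. It read 5.54, 5.68 and 5.48 on PIM1 arrays, against 4.92, 5.03 and 5.02 on EV arrays. All 3 PIM1 values exceeded all 3 EV values by more than the spread within either group. The Hoxb13 difference was 0.58 (standard error 0.101, limma adjusted p = 0.00377), a 1.49-fold higher signal in PIM1, and it passed in all 14 alternatives with adjusted p up to 0.0416. The pioneer factor gene Foxa1, whose product acts with HOXB13 in prostate epithelium, differed by -0.21 (95% interval -0.50 to 0.07) and was not called, whereas the androgen response gene Fkbp5 fell by 0.36 (limma adjusted p = 0.0281), a call that held in 7 of 14 alternatives.

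In HoxD the calls were 2 rises among 8 measured genes, of the neighbours Hoxd8 and Hoxd9, beside 16.1% of all genes rising. Hoxd9, which patterns limb and lumbosacral levels, read 4.94, 5.20 and 5.05 on PIM1 arrays, against 3.74, 3.17 and 3.79 on EV arrays. The lowest of the EV values, replicate 2, lay below the background mark. The difference was 1.5 (standard error 0.174, limma adjusted p = 4.45e-04), a 2.83-fold higher signal in PIM1 and the largest rise of a Hox gene. Hoxd8, its neighbour, read 5.96, 5.90 and 5.90 on PIM1 arrays, against 4.92, 4.88 and 5.25 on EV arrays, a difference of 0.90 (standard error 0.121, limma adjusted p = 9.69e-04). Both calls held in all 14 alternatives.

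On either side of that pair the HoxD genes were not called. Hoxd10 read 3.89, 4.15 and 3.78 on PIM1 arrays and 4.13, 3.78 and 4.31 on EV arrays, with overlapping groups and a difference of -0.14 (95% interval -0.51 to 0.24). Hoxd11, Hoxd12 and Hoxd13, needed for limb and genital tract development, and Hoxd1 and Hoxd3 all lay below the background mark, with differences between -0.31 for Hoxd13 and 0.17 for Hoxd3. Hoxd13 passed without EV replicate 1 (-0.43, limma adjusted p = 0.0489). The antisense gene Hoxd3os1 of this cluster rose by 0.37, with 3.85 ± 0.06 on PIM1 arrays and 3.48 ± 0.10 on EV arrays (SD, n = 3 each, limma adjusted p = 0.0270), but held this call in 5 of the 13 alternatives that tested it. The annotated spans of Hoxd3os1 and Hoxd3 overlap.

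All 9 measured HoxA genes lay above the mark, 2 rose and 0 fell by limma (3 higher and 1 lower at an unadjusted p under 0.05), and the median difference was 0.18. The HoxA count stands beside 25.3% rising and 13.8% falling among all genes above the mark. Hoxa13, the paralogue of Hoxb13 that is needed for the hindgut and the urogenital tract, read 6.11, 6.17 and 6.37 on PIM1 arrays, against 5.44, 4.75 and 5.64 on EV arrays. The EV arrays were spread widely, with replicate 2 the lowest, and none reached a PIM1 array. The Hoxa13 difference was 0.94 (standard error 0.216, limma adjusted p = 0.0137), a 1.92-fold higher signal in PIM1, and it did not pass without PIM1 replicate 3 (0.86, adjusted p = 0.0602).

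Hoxa4, a low-numbered gene of the cluster, read 4.98, 5.24 and 5.24 on PIM1 arrays, against 4.36, 4.81 and 4.63 on EV arrays. The groups did not overlap, and the difference was 0.56 (limma adjusted p = 0.0215). That call was lost after quantile normalization (0.39, adjusted p = 0.0961), over all probe sets (0.0519), and without PIM1 replicate 2 (0.0807), PIM1 replicate 3 (0.0748) or EV replicate 1 (0.0523). The annotated span of Hoxa3 overlaps those of Hoxa4, Hoxa5 and Hoxa6. Whether transcripts of Hoxa3 reach the probe sets of these genes was not tested. Hoxa3 itself read 4.42, 4.05 and 4.42 on PIM1 arrays and 4.09, 4.06 and 4.18 on EV arrays, with overlapping groups and a difference of 0.18 (95% interval -0.11 to 0.47).

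Among the HoxA genes not called, Hoxa9, a driver of leukaemia self-renewal when highly expressed, came nearest. Hoxa9 read 5.89, 5.66 and 5.92 on PIM1 arrays, against 6.04, 6.17 and 6.39 on EV arrays, a difference of -0.38 (95% interval -0.67 to -0.08, limma adjusted p = 0.0628). No PIM1 array reached an EV array, and Hoxa9 passed in 5 of 14 alternatives, including quantile normalization (-0.60, adjusted p = 0.00753), cyclic loess (-0.51, adjusted p = 0.0163) and leaving out EV replicate 1 (-0.45, adjusted p = 0.0485). Hoxa6 read 6.96, 6.79 and 6.85 on PIM1 arrays and 6.77, 6.29 and 6.57 on EV arrays (difference 0.32, limma adjusted p = 0.128), and it passed without EV replicate 1 (adjusted p = 0.0497). For both genes the groups did not overlap. Hoxa5 read 6.06, 6.09 and 6.25 on PIM1 arrays and 6.16, 6.34 and 6.15 on EV arrays (difference -0.08, 95% interval -0.33 to 0.17). Hoxa7 read 6.76, 6.73 and 6.76 on PIM1 arrays and 6.96, 6.77 and 6.76 on EV arrays (difference -0.08, 95% interval -0.31 to 0.15). Hoxa10 read 5.98, 6.12 and 6.03 on PIM1 arrays and 6.08, 5.78 and 6.03 on EV arrays (difference 0.08, 95% interval -0.18 to 0.35). These 3 intervals leave out a change of 1.5-fold in either direction. Hoxa2, a gene of hindbrain and second pharyngeal arch identity, read 3.64, 3.44 and 3.93 on PIM1 arrays and 3.44, 3.26 and 3.42 on EV arrays (difference 0.30, 95% interval -0.02 to 0.62).

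HoxC lay almost wholly below background, with 0 calls by limma and 0 higher and 3 lower at an unadjusted p under 0.05. Of its 9 measured genes, 8 lay below the mark in both groups, with means of 1.64 to 3.23 on PIM1 arrays and 1.94 to 3.59 on EV arrays for the cluster. Hoxc12 was the member above the mark, with 3.38, 3.37 and 2.95 on PIM1 arrays and 3.72, 3.55 and 3.51 on EV arrays, and it was not called (difference -0.36, limma adjusted p = 0.0942). Differences in this cluster ran from -0.36 for Hoxc10 to 0.19 for Hoxc11, and 8 of 9 were negative. Over all genes at or below the mark 6.88% were called. Among them 77.8% of differences were negative, so the sign of these differences is shared by most dim genes. Hoxc10 passed without EV replicate 1 (-0.48, limma adjusted p = 0.0480). Hoxc4, Hoxc5, Hoxc6, Hoxc8, Hoxc9 and Hoxc13 differed by -0.05, -0.30, -0.30, -0.02, -0.17 and -0.25, none of them called. At such low signals a fall would be hard to see, so these values do not show that HoxC expression was alike.

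**Figure D2:**
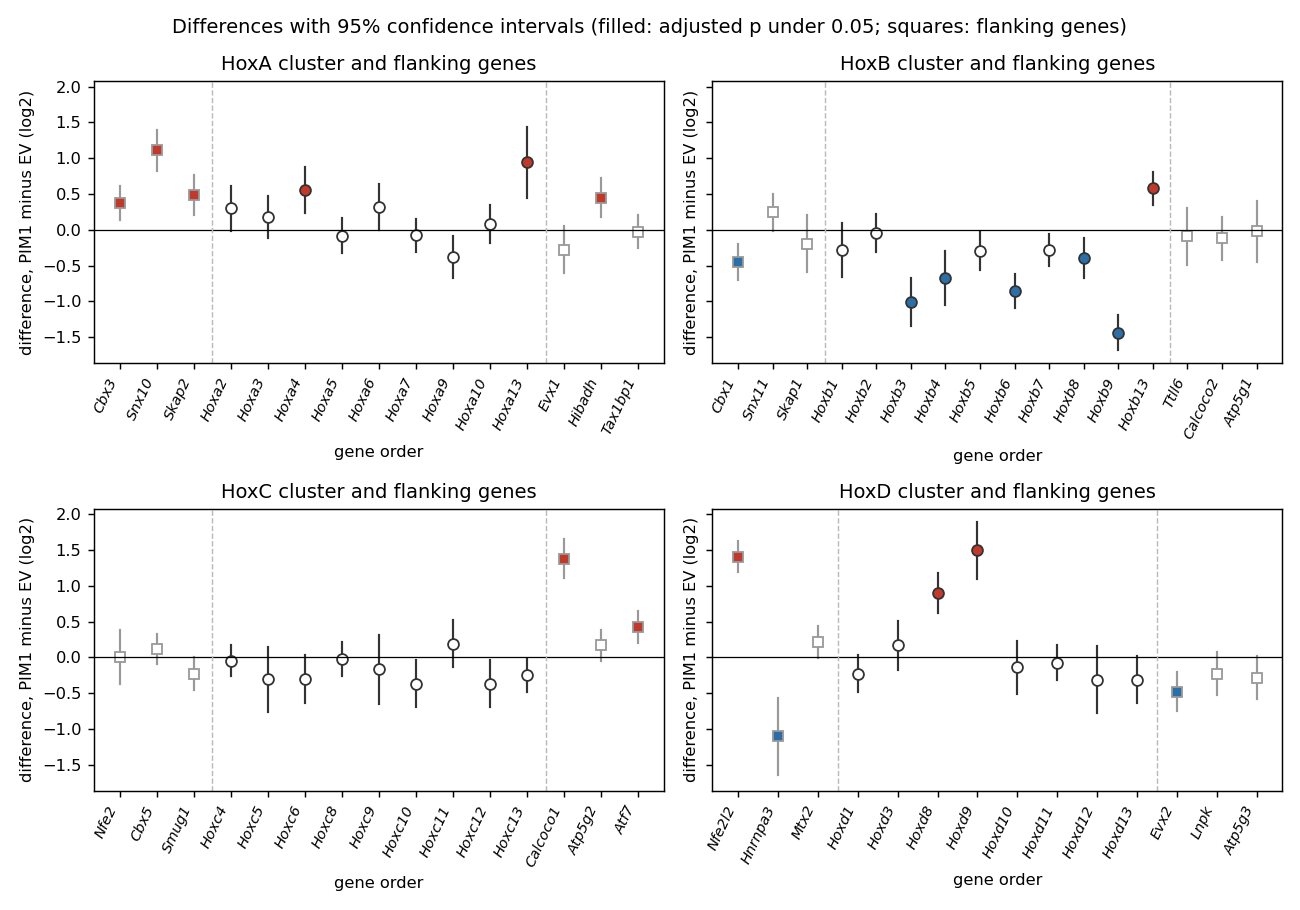
Difference PIM1 minus EV in log2 units, with 95% confidence intervals, for the Hox genes of each cluster by paralogue number (circles) and for the 3 nearest measured protein-coding genes on each side (squares, beyond the dashed lines), filled where the adjusted p was under 0.05. In HoxB the genes up to Hoxb9 lie below 0 and Hoxb13 lies above it at 0.58, and in HoxD the filled circles are Hoxd8 and Hoxd9.

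Read by paralogue number, the calls fell in 6 of 13 paralogue groups. In 3 of them, groups 4, 8 and 9, 1 member rose and another fell. Hoxa4 rose while Hoxb4 fell, Hoxd8 rose while Hoxb8 fell, and Hoxd9 rose by 1.5 while Hoxb9 fell by 1.43. Hoxd8, Hoxd9 and Hoxb9 were called in all 14 alternatives, Hoxb4 in 12, Hoxa4 in 9 and Hoxb8 in 6. In group 13 both members above background, Hoxa13 and Hoxb13, rose, and Hoxc13 and Hoxd13 lay below the mark with differences of -0.25 and -0.31. Groups 3 and 6 each held 1 fall, Hoxb3 and Hoxb6. Of the 7 measured genes of paralogue groups 1 to 3, 0 rose and 1 fell, with the same counts at an unadjusted p under 0.05. Of 14 genes of groups 4 to 8, 2 rose and 3 fell, with 3 higher and 5 lower at an unadjusted p under 0.05. Of 15 genes of groups 9 to 13, 3 rose and 1 fell, but 3 were higher and 5 lower at an unadjusted p under 0.05, 10 differences were negative and the median was -0.17. Of these 15 genes, 7 lay at or below the background mark. Over all genes 57.0% of differences were negative, and 77.8% among genes at or below the mark. The counts by adjusted p in these ranges stand beside 16.1% of all genes rising and 10.9% falling. Genes of 1 paralogue group could thus differ in direction, and so could Hoxb13 and the rest of its cluster.

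**Figure D3:**
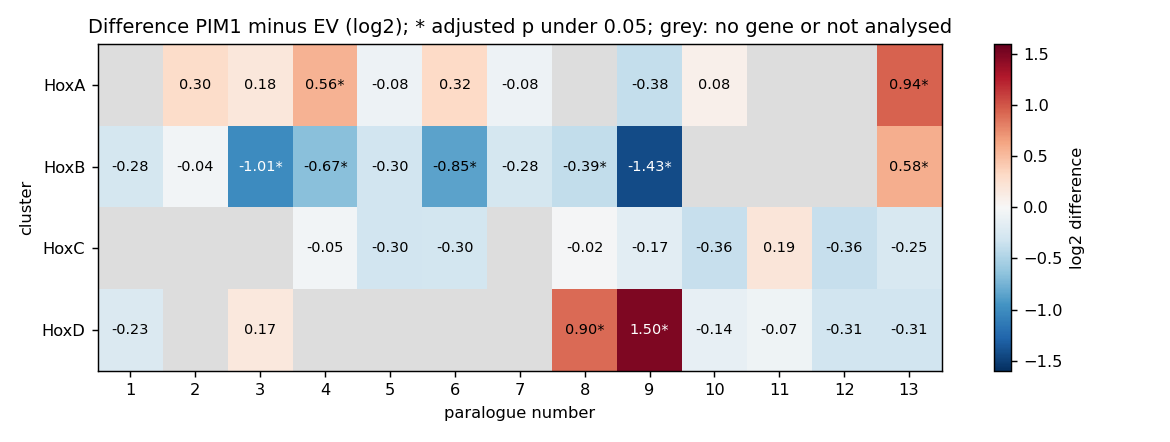
Map of the difference PIM1 minus EV in log2 units by cluster (rows) and paralogue number (columns), with the value in each cell, red for higher and blue for lower in PIM1, an asterisk for adjusted p under 0.05 and grey where there is no gene or it was not analysed. Column 9 holds the extremes, 1.5 for Hoxd9 and -1.43 for Hoxb9, and column 13 holds the rises of Hoxa13 and Hoxb13.

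Of 24 nearest measured protein-coding neighbours, 3 on each side of each cluster, 7 rose and 3 fell. Of the 24, 22 lay above the background mark, and among all such genes 39.1% were called, 25.3% rising and 13.8% falling. Next to HoxB, the 3 genes beyond Hoxb13 were not called, with Ttll6, a tubulin-modifying enzyme gene, at -0.09 (95% interval -0.49 to 0.31). On the other side of HoxB, Skap1 and Snx11 were not called and the heterochromatin protein gene Cbx1 fell by 0.45 (limma adjusted p = 0.0190, called in 11 of 14 alternatives). Next to Hoxd13, the homeobox gene Evx2 fell by 0.48, with 3.76 ± 0.10 on PIM1 arrays and 4.24 ± 0.17 on EV arrays (SD, n = 3 each, limma adjusted p = 0.0190), and Lnpk was not called. The Evx2 call was lost without PIM1 replicate 2 or PIM1 replicate 3. Beyond Hoxd1, Mtx2 was not called, Hnrnpa3 fell by 1.10, and Nfe2l2, the gene of the antioxidant factor NRF2, rose by 1.41.

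The neighbours of HoxA and HoxC gave further rises. Skap2, Snx10 and Cbx3, the 3 genes on the Hoxa2 side, rose by 0.48, 1.11 and 0.38 (limma adjusted p = 0.0205, 4.12e-04 and 0.0290), called in 11, 14 and 6 of 14 alternatives. The settings without the Cbx3 call included the average of the probe sets of a gene. On the Hoxa13 side Evx1 was not called and Hibadh rose by 0.45 (limma adjusted p = 0.0248, called in 6 of 14 alternatives). Beside the HoxC cluster, Calcoco1, a coactivator and autophagy receptor gene, rose by 1.38, with 8.76 ± 0.09 on PIM1 arrays and 7.38 ± 0.18 on EV arrays (SD, n = 3 each). Atf7 rose by 0.43 (limma adjusted p = 0.0129). A listed set of 26 measured flanking genes, 24 of them above the background mark, held mostly the same genes. It lacked Atf7 and added Hnrnpa2b1, which fell, and Nfe2l1 and Copz1, which rose. Of the 26, 8 rose and 4 fell, beside the same 25.3% and 13.8%.

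The clusters also hold microRNA genes, of which miR-196a and miR-10b are printed because they lie among the genes described, Mir196a-1 between Hoxb9 and Hoxb13, Mir196a-2 in HoxC and Mir10b in HoxD. Mature sequences are from RefSeq, GRCm38.p6, 5′ to 3′, with the seed, bases 2 to 8, in capitals.
mmu-miR-196a-5p: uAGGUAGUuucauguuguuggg
mmu-miR-10b-5p: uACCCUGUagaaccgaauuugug
Their seeds differ, and mature miR-196a-5p is the same from either gene. The probe sets of Mir196a-1, Mir196a-2 and Mir10b lay below the background mark, with differences of -0.26, -0.05 and -0.17 and no call. The array was labelled for whole transcripts, so these values do not measure mature microRNAs. Mir615 of HoxC read 3.51, 3.27 and 3.04 on PIM1 arrays and 4.32, 3.28 and 3.93 on EV arrays (difference -0.57, limma adjusted p = 0.134), with overlapping groups. Hoxaas3, an antisense gene of HoxA, differed by 0.20 (limma adjusted p = 0.218). Hotair, a long non-coding gene of HoxC, was likewise below the mark (3.07 ± 0.16 on PIM1 arrays and 3.15 ± 0.20 on EV arrays, SD, n = 3 each).

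Of 8 measured genes of Hox protein partners 1 rose and 0 fell by limma (3 higher and 0 lower at an unadjusted p under 0.05), with a median difference of 0.25. This count stands beside 16.1% of all genes rising and 10.9% falling. Pknox2, a TALE-class partner, read 6.26, 6.29 and 6.34 on PIM1 arrays, against 5.57, 5.63 and 5.65 on EV arrays (difference 0.68, limma adjusted p = 9.49e-04). Pknox1 and Meis3 differed by 0.41 and 0.56 and missed the threshold (limma adjusted p = 0.0506 and 0.0587), and Pbx2 differed by 0.27. Meis1 and Meis2, which are bright here and known as HOXB13 partners in prostate, differed by -0.08 (95% interval -0.36 to 0.21) and -0.07 (-0.40 to 0.27).

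Polycomb complexes deposit the histone marks that silence Hox genes. Of 32 measured subunits, all above the background mark, 3 rose and 9 fell, beside 13.8% falling and 25.3% rising among all genes above the mark, and the median difference was 0.06. Ezh2, the main H3K27 methyltransferase, read 8.28, 8.15 and 8.31 on PIM1 arrays, against 8.92, 8.80 and 8.92 on EV arrays (difference -0.63, limma adjusted p = 0.00219). Its complex partner Suz12 fell by 0.67 and the variant ring-finger subunit gene Pcgf5 by 1.07 (limma adjusted p = 0.00176 and 6.22e-04). In the opposite direction Ezh1, the second methyltransferase, read 7.33, 7.48 and 7.49 on PIM1 arrays, against 6.81, 6.57 and 6.71 on EV arrays (difference 0.73, limma adjusted p = 0.00151). Of 20 trithorax and other activating factors, all above the background mark, 0 rose and 3 fell by limma (median -0.07). These counts stand beside the same 25.3% rising and 13.8% falling, and the share that fell, 15%, was near the latter. At limma's unadjusted p under 0.05, 1 was higher and 7 lower. The genes that fell were Bptf, a chromatin remodeller, by 0.72, the elongation factor gene Aff4 by 0.48 and the H3K27 demethylase gene Kdm6b by 0.36 (limma adjusted p = 0.00120, 0.00584 and 0.0440). Bptf and Aff4 were called in all 14 alternatives and Kdm6b in 5 of 14. Paxip1 differed by -0.32 (limma adjusted p = 0.0519).

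Genes of the retinoic acid system moved both ways, 5 higher and 4 lower of 17 measured, beside 16.1% higher and 10.9% lower over all genes, with a median difference of -0.16. Dhrs3, which turns retinaldehyde back to retinol, rose the most, with 6.72, 6.75 and 6.71 on PIM1 arrays and 4.41, 3.65 and 3.76 on EV arrays (difference 2.79, limma adjusted p = 2.36e-05). Crabp2, which carries retinoic acid to the nucleus, read 4.96, 5.38 and 5.03 on PIM1 arrays, against 6.68, 6.68 and 6.94 on EV arrays (difference -1.65, limma adjusted p = 8.91e-05). The receptor genes Rarg and Rara rose by 0.66 and 0.40 and Rarb fell by 0.52 (limma adjusted p = 0.00625, 0.0188 and 0.00470). Rarg passed in 13 of 14 alternatives, failing after quantile normalization (adjusted p = 0.0511). Rara passed in 8 of 14, with an adjusted p up to 0.250. The synthesis enzyme genes Aldh1a1 and Aldh1a3 fell by 0.76 and 0.44, calls that held in 10 of 14 and 4 of 13 alternatives. Aldh1a3 lay near background, above the mark on 1 of 3 PIM1 arrays and 2 of 3 EV arrays.

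Of 13 ParaHox and related homeobox genes 0 rose and 0 fell by limma, with 2 higher and 0 lower at an unadjusted p under 0.05 and 2 called higher after quantile normalization or cyclic loess. The genes with the smallest p were Meox1 (0.33, limma adjusted p = 0.0547), En1 (0.42), Mnx1 (-0.30) and Pdx1 (-0.19). Of the 13, 7 lay at or below the background mark, En1 and Mnx1 among them, and of all such genes 6.88% were called. Meox1 lay above the mark on 3 of 3 PIM1 arrays and 0 of 3 EV arrays. Of 13 upstream regulators 1 rose and 2 fell. The counts of both lists stand beside 16.1% of all genes rising and 10.9% falling. Znhit1, a chromatin remodeller subunit gene, rose by 0.57 (limma adjusted p = 0.00327), and Tbx6, a mesoderm factor gene, fell by 0.40 (limma adjusted p = 0.0408, called in 5 of 13 alternatives). Tbx6 lay near background, with means of 3.07 on PIM1 arrays and 3.47 on EV arrays beside marks of 3.21 and 3.46. Gmnn, the gene of geminin, which restrains DNA replication licensing and binds Hox proteins, read 4.97, 5.42 and 5.94 on PIM1 arrays, against 6.34, 6.69 and 6.46 on EV arrays (difference -1.05, limma adjusted p = 0.0105). The insulator protein gene Ctcf differed by -0.29 (limma adjusted p = 0.0638). Cdx1 and Cdx2, direct activators of mid-cluster Hox genes in the embryo, differed by -0.05 and 0.07 at low signals.

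Of 13 measured urogenital mesenchyme markers 10 rose and 0 fell by limma (the same counts at an unadjusted p under 0.05), with a median difference of 1.05, beside 16.1% of all genes rising. The odd-skipped factor genes Osr2 and Osr1 rose by 2.30 and 2.14, and the forkhead factor genes Foxf1 and Foxf2 by 2.04 and 2.10. Wnt5a, a secreted signal of tract outgrowth, rose by 1.68 (limma adjusted p = 1.32e-05). Summed linear signals of the list were 2678 to 2927 on PIM1 arrays and 1071 to 1138 on EV arrays. Fibroblast markers rose as well (10 of 12), and their part in this list was not tested. Of 16 prostate Hox partners and targets, Hoxa13 and Hoxb13 included, 5 rose and 3 fell, beside 16.1% rising and 10.9% falling over all genes. Of the falls, Shh lay below the background mark in both groups and was called in 7 of 13 alternatives, and Fkbp5 in 7 of 14. Bmp4, which limits prostate ductal budding and is also on the mesenchyme list, rose by 1.63, the budding signal gene Fgf10 by 0.64 and the protease gene Mmp9 by 1.71, whereas Bmp7 fell by 0.64. Fgf10, on both lists, lay near background, with means of 3.54 on PIM1 arrays and 2.91 on EV arrays. It was above the mark on 3 of 3 PIM1 arrays and 0 of 3 EV arrays.

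**Figure D4:**
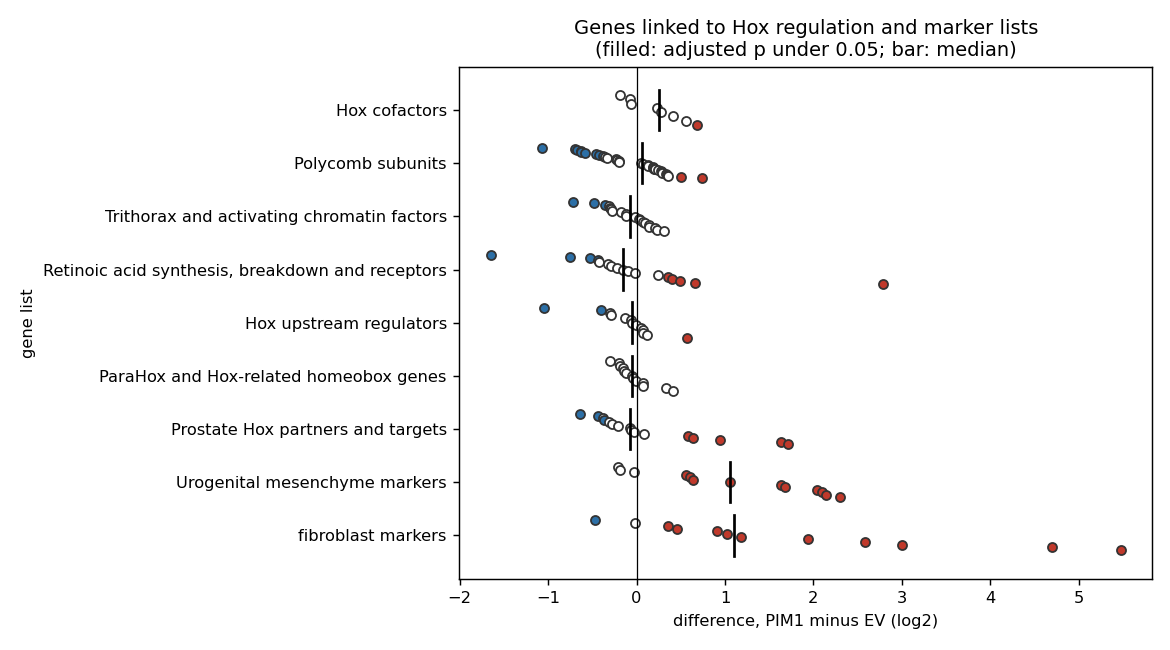
Difference PIM1 minus EV in log2 units of each measured member of 9 gene lists, 1 point per gene, filled red or blue where the gene rose or fell with adjusted p under 0.05, with the list median as a black bar. Urogenital mesenchyme and fibroblast markers have medians of 1.05 and 1.10, and the other medians lie between -0.16 and 0.25.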

How the data were processed

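RNA of 3 PIM1 and 3 EV samples was measured on Affymetrix mouse arrays. The authors deposited 1 log2 value per probe set and array. The log base was inferred from the range of the values. Per the submitters' processing notes, Affymetrix Expression Console was used. The background correction and normalization were not given in the sources used here, and the scaling of the deposited values was kept. Array medians were 3.38 to 3.42 for PIM1 and 3.49 to 3.52 for EV over 41345 probe sets, and 3 arrays per group limit the precision.

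Probe sets were named from the platform annotation: 23521 had 1 gene symbol, 1814 several and 16010 none. Only the first kind was used, and 7 probe sets that list a Hox gene with another gene were left out. RefSeq (GRCm38.p6) gave names and gene order. All 36 Hox genes matched by identifier.

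The comparison used limma 3.58.1 in R 4.3.3 (lmFit, eBayes, two-sided, group only) with Benjamini-Hochberg adjustment over 22180 genes. The script was tested on simulated data. Alternatives were other variance, scaling, brightness and probe-set settings, the replicate block and leaving out each array. Every Hox gene is named, with array values for those that passed or lay above background, and of each linked list up to 4 members with the smallest p plus all that passed where 4 or fewer did. Further genes (Foxa1, Fkbp5, Shh, Meis1, Meis2, Rara, Aldh1a1, Aldh1a3, Cdx1, Cdx2, Mir196a-2, Mir10b, Hotair, Osr1, Foxf2, Bmp7 and the nearest flanking genes) were named after their values were seen. The Hox genes and the lists were chosen with earlier results of these data known.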

Additional observations from a re-analysis of the deposited data

How the results depend on the processing

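Of the 10 called Hox genes, 6 (Hoxb3, Hoxb6, Hoxb9, Hoxb13, Hoxd8 and Hoxd9) passed in all 14 alternatives, 4 did not in at least 1, and none of the 10 changed sign. The count of falling Hox genes, 5, was 8 after quantile normalization, cyclic loess and testing the brighter 11090 genes, where Hoxb5, Hoxb7 and Hoxa9 joined. Leaving out 1 array gave 3 to 5 rises and 3 to 7 falls: 3 falls without PIM1 replicate 1 or PIM1 replicate 2, and 3 rises without PIM1 replicate 3. The HoxB median of -0.34 was -0.58 after quantile normalization, -0.48 after cyclic loess and -0.46 with probe sets averaged. The HoxD median of -0.10 was 0.90 among the brighter genes, where 3 HoxD genes were left. Without 1 array the median ranged from -0.17 to -0.10 for all Hox genes, 0.12 to 0.31 for HoxA, -0.45 to -0.33 for HoxB, -0.30 to -0.15 for HoxC and -0.13 to -0.020 for HoxD. The cause was not tested. HoxC has no median among the brighter genes, since none of its genes is left.

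Samples with the same replicate number did not deviate together (correlations 0.06, -0.03 and 0.01 for numbers 1, 2 and 3). With the replicate block 5 Hox genes rose and 4 fell. Over all genes 59.6% of calls were higher in PIM1, against 47.0% after quantile normalization. Counts for linked lists ranged, over the alternatives, from 1 to 6 rises and 7 to 12 falls for Polycomb (3 and 9 reported), 0 to 2 and 2 to 7 for trithorax (0 and 3), 1 to 6 and 2 to 4 for retinoic acid genes (5 and 4), 1 to 3 rises for cofactors (1), and 9 to 10 rises for urogenital mesenchyme (10).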
